A study of Mus musculus with 9 samples.

Results

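The genes described here are 37 immediate early, feedback and heat shock genes, chosen by matching a fixed list of symbols to the gene symbols of the deposited expression table. All 37 were among its 18571 genes, and all 37 were among the 14696 genes whose counts were high enough to be tested. The study asked how microglia of a mouse model of Alzheimer's disease change when they lose Cx43, the gap junction protein connexin 43 that Gja1 encodes. It compared 3 groups of 3 RNA-seq libraries each, from mice on a C57BL6/j background that were 9 months old. The WT group was wild type. The APP/PS1 group carried human disease transgenes that give amyloid deposits. The Cx43 conditional knockout group (cKO) carried Cx3cr1-CreER and Cx43-flox/flox on top of APP/PS1, and in these mice a tamoxifen-activated Cre recombinase is driven by the Cx3cr1 gene. The labels give tamoxifen for all 3 groups, by gavage at 0.1 mg/g for 5 days at 8 months, and they give neither Cre nor floxed Cx43 for WT and APP/PS1. Presence of Cre, loss of Cx43 and any effect of the Cx3cr1 allele therefore cannot be told apart.

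Immediate early genes are switched on within minutes of a stimulus, without new protein synthesis, when MAP kinases and calcium or cAMP signals act on factors already bound at their promoters. Many encode transcription factors, and others encode proteins that shut the signal off again, such as phosphatases and RNA decay factors. Enzymatic dissociation of tissue is a known trigger of these genes in microglia, and here the cortex and hippocampus were minced and digested with papain before cells were captured on a plate coated for CD45, a protein of all leukocytes, and lysed in place. No library of undissociated tissue was part of the design, so RNA made during the digestion and RNA present in the brain cannot be told apart.

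The proximal promoters carry the sites through which these signals are read. Of the 37 genes, 33 had at least 1 promoter window (250 bases before to 50 after the start) in the RefSeq table of GRCm38.p6. Each gene was counted once, as holding a motif if any of its windows did, so genes with more annotated starts had more chances. The core TGACG of the cAMP response element (CRE), searched on both strands, was held by 18 of these 33 genes (54.5%), against 33% of the tested genes with a window. The full palindrome TGACGTCA, which contains this core, was held by 3 genes (9.09% against 3.33%), Btg2, Dusp1 and Maff. The serum response element core (CArG box), bound by serum response factor, was held by 3 genes (9.09% against 1.64%), Dusp5, Egr2 and Zfp36. The Egr motif GCGNGGGCG was held by 13 genes (39.4% against 11.8%) and the NF-kB motif by 10 (30.3% against 12.4%). The AP-1 motif TGANTCA was held by 1 gene (3.03% against 6.45%), Zfp36l1. These are matches of letters, not measured binding. Over 1 window per gene, the median GC content was 64.7% for these genes against 60.3% for all tested genes, and the part of base composition in these shares was not tested.

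The next sequences are the 250 bases before the start of Fos and Dusp1, shown because both genes are classic targets of cAMP and MAP kinase signals. Each runs 5′ to 3′ on the gene's strand (Fos at chr12:85473640-85473889, plus strand; Dusp1 at chr17:26508473-26508722, minus strand). Capitals mark the CRE core TGACG or the full element, and in Fos also the TATA box TATAAA.
Fos: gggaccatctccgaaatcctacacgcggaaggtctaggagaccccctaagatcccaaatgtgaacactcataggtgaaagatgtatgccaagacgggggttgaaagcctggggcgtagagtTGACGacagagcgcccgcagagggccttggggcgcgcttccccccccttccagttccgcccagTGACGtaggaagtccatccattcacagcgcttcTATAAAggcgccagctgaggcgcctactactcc
Dusp1: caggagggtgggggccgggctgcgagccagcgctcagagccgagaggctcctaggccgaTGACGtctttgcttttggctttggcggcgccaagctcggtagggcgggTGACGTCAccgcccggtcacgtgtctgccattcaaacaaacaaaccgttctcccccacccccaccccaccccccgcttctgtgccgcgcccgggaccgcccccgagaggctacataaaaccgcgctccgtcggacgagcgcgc

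Zfp36 (chr7:28379229-28379478, minus strand) and Dusp5 (chr19:53528895-53529144, plus strand) are shown because both hold a CArG box and yet changed differently in the libraries. Capitals mark the CArG box, in Zfp36 also the Egr motif, and in Dusp5 also the CRE core on the other strand. In Dusp5 a pair of CArG boxes lie end to end.
Zfp36: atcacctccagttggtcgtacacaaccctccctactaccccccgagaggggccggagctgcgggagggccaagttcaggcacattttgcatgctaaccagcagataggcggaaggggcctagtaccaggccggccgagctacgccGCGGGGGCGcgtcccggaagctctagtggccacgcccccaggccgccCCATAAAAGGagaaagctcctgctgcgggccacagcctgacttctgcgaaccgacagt
Dusp5: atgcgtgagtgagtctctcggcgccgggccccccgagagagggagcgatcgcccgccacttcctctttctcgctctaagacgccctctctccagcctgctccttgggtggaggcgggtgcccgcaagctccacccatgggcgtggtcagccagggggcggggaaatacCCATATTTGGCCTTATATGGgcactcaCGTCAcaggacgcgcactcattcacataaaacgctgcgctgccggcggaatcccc

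Nfkbia (chr12:55492648-55492897, minus strand) is shown as the NF-kB target of the group, with its NF-kB motif in capitals.
Nfkbia: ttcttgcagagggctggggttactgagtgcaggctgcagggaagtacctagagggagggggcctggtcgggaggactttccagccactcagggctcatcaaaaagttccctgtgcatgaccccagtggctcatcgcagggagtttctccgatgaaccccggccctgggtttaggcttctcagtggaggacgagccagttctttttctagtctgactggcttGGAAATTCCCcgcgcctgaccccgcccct

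Hspa1a (chr17:34972157-34972406, minus strand) and Hspa1b (chr17:34959239-34959488, minus strand) are neighbouring copies that encode the inducible Hsp70 protein. Capitals mark a heat shock element core, GAANNTTC, which 4 of the 33 genes held (12.1% against 7.18%). The other phase of this element, TTCNNGAA, was held by 1 gene, Egr2 (3.03% against 8.37%). Their 250 bases differ at 3 positions, and the transcripts are also near-identical, so the split of reads between these genes is uncertain.
Hspa1a: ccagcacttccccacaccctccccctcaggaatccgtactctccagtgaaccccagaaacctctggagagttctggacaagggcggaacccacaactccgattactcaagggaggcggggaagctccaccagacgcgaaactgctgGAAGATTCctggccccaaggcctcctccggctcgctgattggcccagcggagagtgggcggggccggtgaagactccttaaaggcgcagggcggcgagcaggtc
Hspa1b: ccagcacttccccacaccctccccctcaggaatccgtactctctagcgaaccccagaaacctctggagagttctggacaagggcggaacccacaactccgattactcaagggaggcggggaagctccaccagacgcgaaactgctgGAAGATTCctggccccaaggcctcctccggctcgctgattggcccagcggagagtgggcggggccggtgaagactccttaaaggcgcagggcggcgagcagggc

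Total estimated counts ran from 18907681 to 19565354 per library. The labels do not say whether the libraries of a group came from separate animals, so p-values measure only the spread between these libraries, which may be technical. The summed level of 10 microglia markers was 19289 to 19652 CPM (counts per TMM-scaled library size) in WT, 23309 to 23660 in APP/PS1 and 19979 to 20265 in cKO. The markers did not move together. By edgeR 6 were higher and 3 lower in APP/PS1 versus WT, 1 higher and 7 lower in cKO versus APP/PS1, and 6 higher and 4 lower in cKO versus WT. The CD45 capture also takes other leukocytes: 13 neutrophil and monocyte markers summed to 2859 to 2907 CPM in WT, 974 to 1004 in APP/PS1 and 9239 to 9429 in cKO. All 13 fell in APP/PS1 versus WT and all 13 rose in cKO versus either other group. Ddx3y, a gene of the Y chromosome, had 4137 to 4538 counts in the WT and APP/PS1 libraries and 0, 1 and 2 in cKO, so sex and genotype cannot be told apart in the comparisons with that group. Gja1 stood at 34.0, 31.6 and 35.1 CPM in WT, at 39.7, 37.03 and 42.5 in APP/PS1 and at 27.2, 25.3 and 28.1 in cKO, and it is also a gene of astrocytes. In bulk RNA, fewer cells of a type and less RNA per cell cannot be told apart, and the part of these cell mixtures in the results below was not tested.

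The 37 genes together took 4.58%, 4.76% and 4.65% of all counts in the WT libraries, with 3.51%, 3.62% and 3.57% in APP/PS1 and 3.71%, 3.83% and 3.77% in cKO. All WT libraries lay above all others, and the lowest cKO library lay above the highest APP/PS1 library. Per length, the highest mean level over all libraries was that of Zfp36, at 4598 TPM (transcript abundance per length, summing to the same total in each library). Junb followed at 3414 TPM, Nfkbia at 2634 TPM and Egr1 at 2408 TPM. The lowest were Nr4a2 at 18.7 TPM, Nr4a3 at 31.5 TPM and Gadd45a at 41.5 TPM. Replicates lay close together: the median coefficient of variation of the 37 genes was 2.38% in WT, 2.76% in APP/PS1 and 2.37% in cKO, against 3.18%, 3.38% and 3.34% over 6566 genes with at least the mean CPM of the lowest of the 37.

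**Figure D1:**
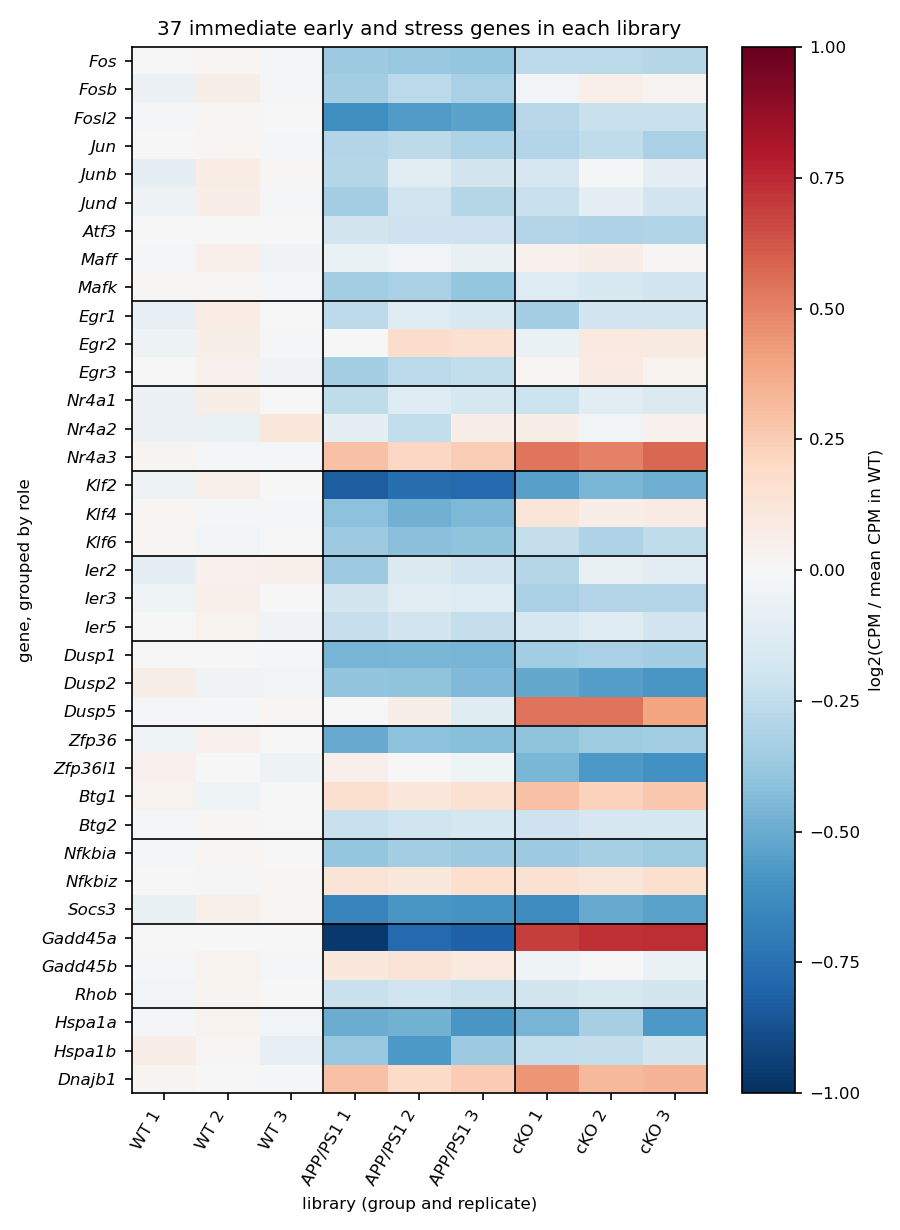
Heat map of the log2 ratio of each gene's CPM (rows, grouped by role) in each library (columns) to its mean CPM in WT. By group means, 18 rows are blue in APP/PS1 and paler blue in cKO, and 5 are deeper blue in cKO, while Nr4a3, Btg1, Nfkbiz and Dnajb1 are red in both and Gadd45a is blue in APP/PS1 and red in cKO; on log2 TPM the APP/PS1 values of those 4 red rows turn below WT, as does the cKO value of Nfkbiz.

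In APP/PS1 microglia versus WT, 27 of the 37 genes were lower, 5 were higher and 5 did not pass the test (edgeR quasi-likelihood test, Benjamini-Hochberg adjusted p under 0.05 over all tested genes). Of all tested genes, 32% were lower and 26.9% higher in this comparison. The median log2 change of the 37 was -0.23, against -0.04 over all tested genes. The largest falls were those of Gadd45a, Klf2, Socs3 and Fosl2, and 21 of the 27 lower genes stayed lower and past the threshold in each of 24 other ways of processing. The 5 higher genes were Nr4a3, Dnajb1, Btg1, Nfkbiz and Gadd45b, and all 5 turned below WT on log2(TPM + 1), a scale on which the median of all tested genes moved to -0.35. The median of the 37 minus that of all genes was -0.19 with TMM scaling, -0.19 with library totals and -0.27 on TPM. With per-library offsets for transcript GC content and length the median of the 37 was -0.09, against -0.01 over all tested genes. There 23 of the 37 were lower and 5 higher, and 53.6% of all tested genes were called in either direction. These offsets made 16 of the 32 called changes smaller by over 1.5 times, among them Fosl2 (-0.38), Socs3 (-0.38), Hspa1a (-0.28), Klf4 (-0.27), Egr3 (-0.16), Mafk (-0.12), Btg2 (-0.09), Junb (-0.09) and Jun (-0.05), which were still called lower. On log2(TPM + 1), 25 of the 32 were larger by over 1.5 times.

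In cKO versus APP/PS1, 18 of the 37 genes were higher, 5 were lower and 14 did not pass the edgeR test. Of all tested genes, 27.3% were higher and 27.7% lower. The median log2 change of the 37 was 0.10 against -0.01 over all tested genes. With TMM scaling Gadd45a was the only member past a 2-fold change in any of the 3 comparisons, while on log2(TPM + 1) Klf2 (-1.17) and Socs3 (-1.003) passed it too in APP/PS1 versus WT. The genes that stayed higher in each of the 24 other ways of processing were 11, namely Gadd45a, Klf4, Dusp5, Fosb, Fosl2, Egr3, Nr4a3, Klf2, Btg1, Klf6 and Dusp1, and Zfp36l1 was the 1 that stayed lower. With the GC content and length offsets the median of the 37 was 0.05, against -0.01 over all tested genes. There 16 of the 37 were higher and 11 lower, and 51.7% of all tested genes were called in either direction. With these offsets 9 of the 23 called changes were smaller by over 1.5 times. Among them were Fosl2 (0.21) and Gadd45b (-0.08), still called, and Maff (0.05), Mafk (0.03) and Hspa1b (0.07), not called. On log2(TPM + 1), where the median of all genes moved to 0.14, 32 were higher and 1 was lower. On this scale 61.8% of all tested genes were called in either direction.

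In cKO versus WT, 22 of the 37 genes were lower, 7 were higher and 8 did not pass the edgeR test. Of all tested genes, 23% were lower and 24.7% higher. The median log2 change of the 37 was -0.17 against -0.01 over all tested genes. The calls of 21 of the 22 lower genes and of 4 of the 7 higher genes (Gadd45a, Nr4a3, Dusp5 and Dnajb1) held in each of the 24 other ways of processing. With GC content and length offsets 3 of the 29 called changes were smaller by over 1.5 times, and on log2(TPM + 1) 17 were larger by as much. The 3 comparisons share libraries, so their values are set side by side here and are not independent. By mean CPM, 18 of the 37 genes were highest in WT and lowest in APP/PS1 with cKO between, an order that 20.3% of all tested genes had. Of these 18, Junb, Nr4a1, Ier2, Ier5, Btg2, Nfkbia, Socs3, Rhob and Hspa1a did not pass the edgeR test in cKO versus APP/PS1. With GC content and length offsets Nr4a1, Btg2, Socs3 and Rhob were called lower in that comparison, and Junb, Ier2 and Nfkbia higher. Another 7 (Fosb, Maff, Egr3, Nr4a2, Klf4, Dusp5 and Gadd45a) had means highest in cKO and lowest in APP/PS1. Of all tested genes 17.5% had that order, a share near that of the 7 among the 37. The neutrophil and monocyte marker sum had this order too. Of the 7, Fosb, Maff, Egr3 and Nr4a2 did not pass the edgeR test in cKO versus WT (adjusted p = 0.667, 0.29, 0.352 and 0.772).

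**Figure D2:**
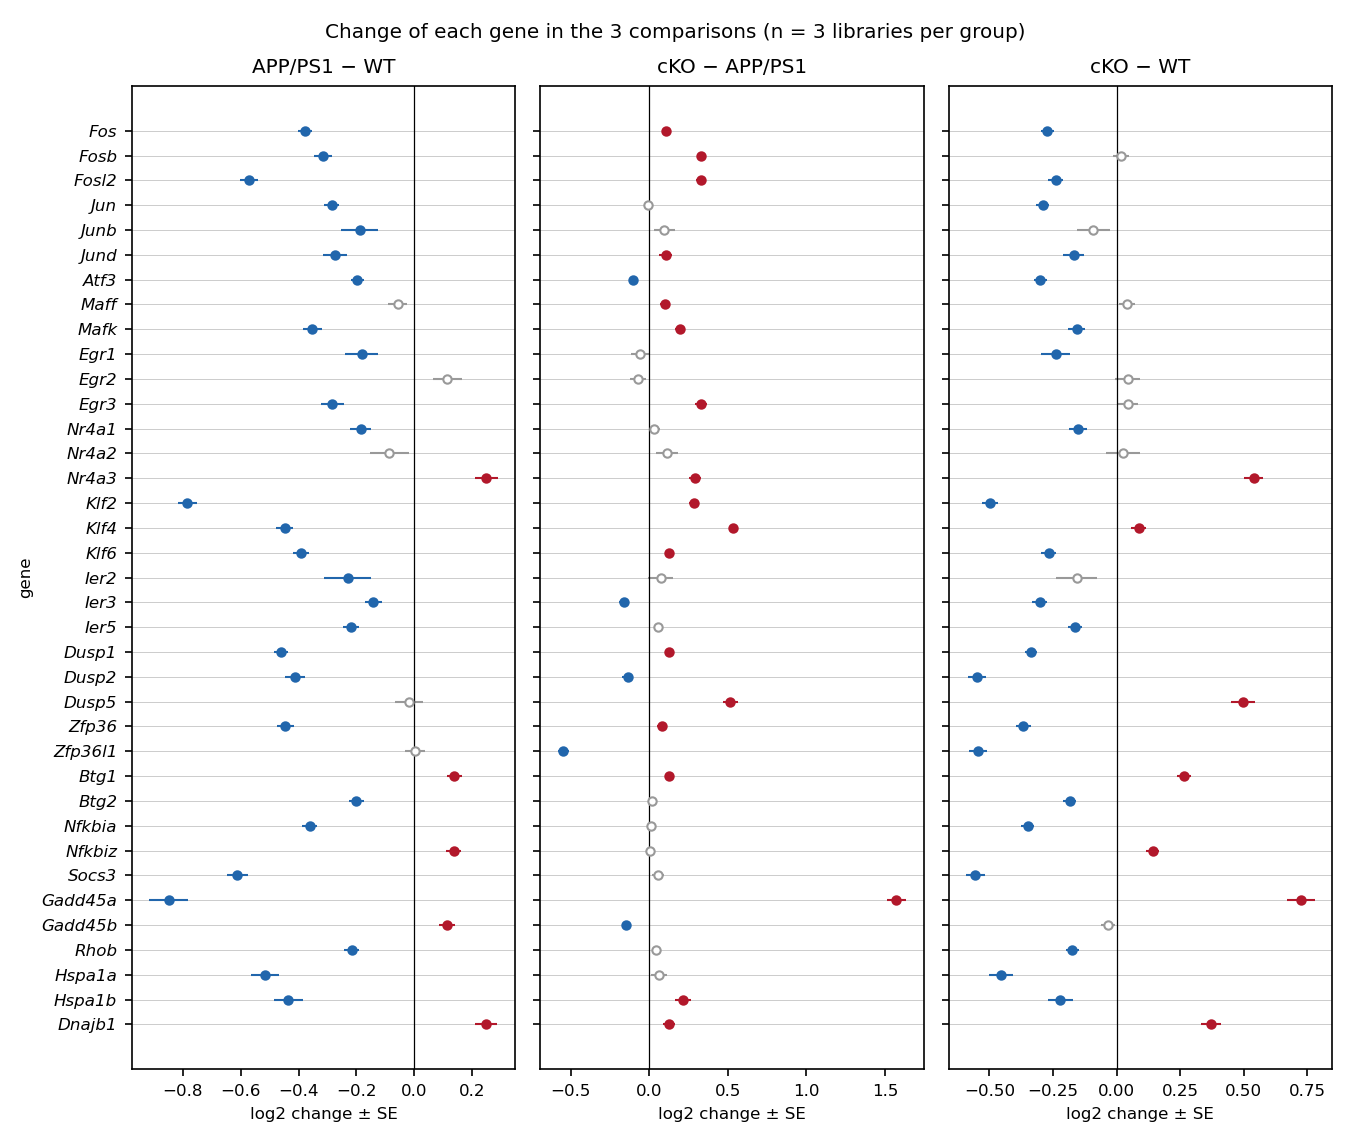
Log2 change of each gene with its SE in each comparison (edgeR with TMM scaling, 3 libraries per group); filled red points were called higher, filled blue points lower, and open grey points did not pass the test. In APP/PS1 versus WT 27 points are blue and 5 red, in cKO versus APP/PS1 18 are red and 5 blue, and Gadd45a lies farthest from 0 in that comparison; the 5 red points of the first panel turn below 0 on log2(TPM + 1).

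AP-1 is a dimer of Fos and Jun family proteins, and Atf3, Maff and Mafk are related leucine zipper factors. Of these 9 genes, 8 were lower in APP/PS1 than in WT (32% over all tested genes), of which Junb and Jund lost the call in some of the other ways of processing. Fos, added for its role after its values were seen, stood at 2304, 2333 and 2276 CPM in WT, at 1788, 1774 and 1761 in APP/PS1 and at 1918, 1913 and 1895 in cKO. The 3 groups did not overlap, with cKO between the others. Fos fell by 0.38 ± 0.024 (SE) on the log2 scale in APP/PS1 versus WT (edgeR adjusted p = 3.33e-13), and it was higher by 0.11 ± 0.024 in cKO versus APP/PS1 (edgeR adjusted p = 0.000599), a call lost with GC content and length offsets (0.05). Fosb stood at 1731, 1877 and 1787 CPM in WT, at 1410, 1489 and 1439 in APP/PS1 and at 1766, 1866 and 1830 in cKO. Its cKO libraries lay within the range of the WT libraries, and all APP/PS1 libraries lay below both. Its log2 change was -0.31 ± 0.030 in APP/PS1 versus WT (edgeR adjusted p = 1.32e-09), 0.33 ± 0.030 in cKO versus APP/PS1 (edgeR adjusted p = 5.85e-10) and 0.02 ± 0.030 in cKO versus WT (edgeR adjusted p = 0.667). With GC content and length offsets the first of these was -0.07 and the second 0.15, both still called. In the last comparison Fosb was called lower with library totals (-0.09) and on log2(TPM + 1) (-0.18), and higher with GC content and length offsets (0.09).

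Fosl2, which encodes the AP-1 subunit Fra-2, stood at 299, 303 and 300 CPM in WT, at 196, 203 and 208 in APP/PS1 and at 249, 258 and 257 in cKO. The groups did not overlap, and cKO lay between the others. The log2 change came to -0.57 ± 0.031 in APP/PS1 versus WT (edgeR adjusted p = 7.45e-15) and 0.33 ± 0.031 in cKO versus APP/PS1 (edgeR adjusted p = 8.01e-10). Junb, the most abundant AP-1 transcript per length, stood at 2938, 3300 and 3160 CPM in WT, at 2571, 2918 and 2753 in APP/PS1 and at 2784, 3102 and 2932 in cKO. The WT and APP/PS1 libraries did not overlap, and the cKO libraries overlapped both. Junb fell by 0.19 ± 0.065 on the log2 scale in APP/PS1 versus WT (edgeR adjusted p = 0.0378). That call was lost without any 1 of 5 libraries: the edgeR adjusted p was 0.0573 without cKO library 3, 0.0752 without APP/PS1 library 1, 0.0794 without APP/PS1 library 3, 0.0883 without WT library 2 and 0.0819 without WT library 3. It was also lost with DESeq2 size factors, limma-voom, no filter on low counts or only the 2 groups compared. With the replicate number as a block it was called (-0.19, edgeR adjusted p = 3.02e-05). The change of Junb in cKO versus WT was -0.09 ± 0.064 (edgeR adjusted p = 0.291), which the fit with the replicate number as a block called lower (edgeR adjusted p = 0.000478), as did library totals (-0.20), log2 FPKM (-0.20) and log2(TPM + 1) (-0.29).

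Jun did not differ between cKO and APP/PS1 beyond the test (log2 change -0.00 ± 0.026, edgeR adjusted p = 0.897), and it was lower in both than in WT. The former change was called lower with length offsets (-0.06) and with GC content and length offsets (-0.17), and higher on log2(TPM + 1) (0.19). Atf3, a stress-induced repressor and activator of the CREB family, had a log2 change of -0.20 ± 0.024 in APP/PS1 versus WT (edgeR adjusted p = 7.99e-08) and of -0.30 ± 0.024 in cKO versus WT (edgeR adjusted p = 5.57e-11). Jund and Mafk had the order of Fos, with log2 changes of -0.27 and -0.35 in APP/PS1 versus WT, and that of Jund was -0.04 and not called with GC content and length offsets. Maff had a log2 change of -0.06 ± 0.031 in that comparison, which did not pass the edgeR test (adjusted p = 0.115) but was called lower with library totals (-0.20), length offsets (-0.09), log2(FPKM + 1) (-0.16), log2(FPKM + 0.1) (-0.17) and log2(TPM + 1) (-0.42). The fit with the replicate number as a block called it lower too (edgeR adjusted p = 0.012).

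The Egr genes encode zinc finger factors that MAP kinases induce through serum response factor. Egr1 stood at 3633, 4059 and 3847 CPM in WT, at 3203, 3523 and 3443 in APP/PS1 and at 3046, 3374 and 3357 in cKO. The WT libraries lay above all others, and APP/PS1 and cKO overlapped. edgeR put its log2 change at -0.18 ± 0.057 in APP/PS1 versus WT (edgeR adjusted p = 0.0237), where the offsets for GC content and length gave 0.05 with no call, length offsets alone -0.09 with no call, and leaving out APP/PS1 library 1 gave an adjusted p of 0.0502. In cKO versus WT it was -0.24 ± 0.057 (edgeR adjusted p = 0.00843), a call that held in each of the 24 other ways of processing. Egr3 fell in APP/PS1 versus WT by 0.28 ± 0.040 on the log2 scale (edgeR adjusted p = 7.63e-07) and was higher by 0.33 ± 0.040 in cKO versus APP/PS1 (edgeR adjusted p = 8.09e-08). Egr2, a factor of macrophage and Schwann cell differentiation, had a log2 change of 0.11 ± 0.049 in APP/PS1 versus WT, which did not pass (edgeR adjusted p = 0.0542). Of the 24 other ways of processing, 12 called it higher, at 0.11 to 0.20, and log2(TPM + 1) called it lower, at -0.28.

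The Nr4a genes encode orphan nuclear receptors that act without a ligand and restrain inflammatory gene expression in macrophages. Nr4a1 stood at 993, 1079 and 1036 CPM in WT, at 870, 946 and 918 in APP/PS1 and at 895, 964 and 937 in cKO. The WT libraries lay above all others. On the log2 scale the difference was -0.19 ± 0.035 in APP/PS1 versus WT (edgeR adjusted p = 0.000127), and with the GC content and length offsets it was -0.04 with no call. Nr4a3 went the other way, at 69.8, 68.0 and 68.0 CPM in WT, at 84.0, 79.2 and 81.4 in APP/PS1 and at 99.3, 97.3 and 102 in cKO. The groups did not overlap, and each cKO library was above each APP/PS1 library. Nr4a3 rose by 0.25 ± 0.039 on the log2 scale in APP/PS1 versus WT (edgeR adjusted p = 5.41e-06), although the change was 0.10 and not called on log2 FPKM and was -0.14 on log2(TPM + 1). It rose by 0.54 ± 0.038 in cKO versus WT (edgeR adjusted p = 5.49e-12), a call that held in each of the 24 other ways of processing. Nr4a2, at 24.9 to 32.0 CPM over all libraries, passed in no comparison by edgeR, and its adjusted p was 0.285, 0.168 and 0.772. It was called lower in APP/PS1 versus WT with library totals (-0.22), log2(FPKM + 1) (-0.19), log2(FPKM + 0.1) (-0.21), log2(TPM + 1) (-0.44) and without APP/PS1 library 3 (-0.17). In cKO versus APP/PS1 it was called higher without that library (0.19) and on log2(TPM + 1) (0.29).

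Klf2 and Klf4 encode zinc finger factors that hold endothelial and myeloid cells in a quiescent state. Klf2 stood at 446, 478 and 460 CPM in WT, at 261, 274 and 269 in APP/PS1 and at 316, 335 and 328 in cKO. Each group kept to its own range, with APP/PS1 lowest. Its change was, in log2 units, -0.78 ± 0.032 in APP/PS1 versus WT (edgeR adjusted p = 2.34e-17) and 0.29 ± 0.033 in cKO versus APP/PS1 (edgeR adjusted p = 3.08e-08). Klf4 stood at 396, 387 and 387 CPM in WT, at 293, 279 and 286 in APP/PS1 and at 424, 407 and 412 in cKO. The cKO libraries lay above WT, and APP/PS1 lay below both. Its log2 change was -0.45 ± 0.029 in APP/PS1 versus WT (edgeR adjusted p = 5.4e-13) and 0.54 ± 0.029 in cKO versus APP/PS1 (edgeR adjusted p = 1.59e-14). In cKO versus WT, Klf4 was higher by 0.09 ± 0.029 (edgeR adjusted p = 0.015), a direction that turned on library totals, FPKM and TPM (-0.11 on log2(TPM + 1)), and the adjusted p was 0.068 without cKO library 1, 0.0533 without WT library 2 and 0.0589 without WT library 3. Klf6 had the order of Klf2, with a log2 change of -0.39 ± 0.028 in APP/PS1 versus WT (edgeR adjusted p = 2.39e-12).

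The Ier genes encode small immediate early response proteins, of which Ier3 is known for its role in survival signalling. Ier2 stood at 576, 633 and 638 CPM in WT, at 479, 557 and 539 in APP/PS1 and at 504, 585 and 569 in cKO. WT lay above APP/PS1 without overlap, and cKO overlapped both. Its log2 change of -0.23 ± 0.081 in APP/PS1 versus WT (edgeR adjusted p = 0.0466) was lost as a call without cKO library 3, APP/PS1 library 1, APP/PS1 library 3, WT library 2 or WT library 3, with adjusted p of 0.0627, 0.0836, 0.0716, 0.122 and 0.115, and also with DESeq2 size factors or no filter on low counts. With the replicate number as a block it was called (edgeR adjusted p = 2.82e-18). The change of Ier2 in cKO versus WT was -0.16 ± 0.081 (edgeR adjusted p = 0.164), and it was called lower with the block (edgeR adjusted p = 4.47e-13), with library totals (-0.26), length offsets (-0.21), GC content and length offsets (-0.14), log2(FPKM + 1) (-0.26), log2(FPKM + 0.1) (-0.27) and log2(TPM + 1) (-0.36). Library by library of the same number, Ier2 was highest in WT and lowest in APP/PS1. Ier3 stood at 407, 433 and 417 CPM in WT, at 370, 386 and 383 in APP/PS1 and at 334, 343 and 342 in cKO. The groups did not overlap, with cKO lowest. Ier3 was lower in cKO than in WT (log2 change -0.30 ± 0.030, edgeR adjusted p = 3.55e-09), while its change of -0.16 ± 0.030 versus APP/PS1 (edgeR adjusted p = 6.32e-05) turned to 0.34 with the length offsets, 0.28 with the GC content and length offsets and 0.03 on log2(TPM + 1). Ier5 had a log2 change of -0.22 ± 0.027 in APP/PS1 versus WT (edgeR adjusted p = 1.13e-07), which was -0.08 and still called with GC content and length offsets.

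The Dusp genes encode phosphatases that inactivate MAP kinases: Dusp1 acts mainly on p38 and JNK, Dusp5 on nuclear ERK. Dusp1 stood at 2324, 2320 and 2294 CPM in WT, at 1675, 1688 and 1676 in APP/PS1 and at 1820, 1851 and 1831 in cKO. The groups did not overlap, and the spread within each was below the gap to the next. The log2 change came to -0.46 ± 0.024 in APP/PS1 versus WT (edgeR adjusted p = 3.68e-15) and 0.13 ± 0.024 in cKO versus APP/PS1 (edgeR adjusted p = 6.58e-05). Dusp5 stood at 67.1, 67.0 and 68.3 CPM in WT, at 67.2, 70.3 and 62.1 in APP/PS1 and at 98.4, 98.5 and 88.5 in cKO. WT and APP/PS1 overlapped, and all cKO libraries lay above them. The log2 change of Dusp5 was -0.02 ± 0.048 in APP/PS1 versus WT (edgeR adjusted p = 0.75), 0.52 ± 0.047 in cKO versus APP/PS1 (edgeR adjusted p = 5.68e-10) and 0.50 ± 0.046 in cKO versus WT (edgeR adjusted p = 1.28e-09). In APP/PS1 versus WT it was called lower with library totals (-0.16), and on the scales log2(FPKM + 1) (-0.15), log2(FPKM + 0.1) (-0.16) and log2(TPM + 1) (-0.41). Dusp2, a nuclear phosphatase of immune cells, stood at 234, 219 and 220 CPM in WT, at 171, 170 and 165 in APP/PS1 and at 157, 154 and 150 in cKO. It was lowest in cKO without overlap. edgeR put its log2 change at -0.55 ± 0.034 in cKO versus WT (edgeR adjusted p = 2.24e-13), and its change of -0.14 ± 0.034 versus APP/PS1 (edgeR adjusted p = 0.00147) turned to 0.01 with the length offsets and 0.06 on log2(TPM + 1) and was -0.06 with no call with GC content and length offsets.

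Zfp36 (tristetraprolin) and Zfp36l1 encode proteins that bind AU-rich elements and speed the decay of cytokine mRNAs, and Btg1 and Btg2 encode antiproliferative proteins that recruit deadenylases. Zfp36 stood at 4369, 4630 and 4484 CPM in WT, at 3172, 3387 and 3343 in APP/PS1 and at 3402, 3517 and 3541 in cKO. Each group kept to its own range, with WT highest. On the log2 scale the difference was -0.45 ± 0.028 in APP/PS1 versus WT (edgeR adjusted p = 2.71e-13). Its change of 0.08 ± 0.028 in cKO versus APP/PS1 (edgeR adjusted p = 0.0201) was no longer a call without cKO library 2, cKO library 3 or APP/PS1 library 1, with adjusted p of 0.0674, 0.0873 and 0.151. Zfp36l1 stood at 813, 787 and 761 CPM in WT, at 814, 785 and 764 in APP/PS1 and at 573, 530 and 517 in cKO. WT and APP/PS1 covered nearly the same range, and cKO lay below both. Its change was, in log2 units, 0.00 ± 0.036 in APP/PS1 versus WT (edgeR adjusted p = 0.978) and -0.55 ± 0.036 in cKO versus APP/PS1 (edgeR adjusted p = 2.9e-11), and the latter call held in each of the 24 other ways of processing. The former change was called lower with library totals (-0.14), on log2 FPKM (-0.14 with either pseudocount) and on log2(TPM + 1) (-0.39), and higher with the block together with length offsets (0.09) or GC content and length offsets (0.06).

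Btg1 stood at 1372, 1303 and 1341 CPM in WT, at 1492, 1441 and 1486 in APP/PS1 and at 1636, 1570 and 1615 in cKO. Each group kept to its own range and cKO was highest. Its log2 change was 0.13 ± 0.027 in cKO versus APP/PS1 (edgeR adjusted p = 0.000306), a call that held in each of the 24 other ways of processing. In APP/PS1 versus WT it was 0.14 ± 0.027 (edgeR adjusted p = 9.57e-05), a call lost with library totals (0.00035) and on log2 FPKM (0.00055) and turned to -0.25 on log2(TPM + 1). Btg2, with a CRE in its promoter window, had a log2 change of -0.20 ± 0.026 in APP/PS1 versus WT (edgeR adjusted p = 1.77e-07).

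Nfkbia encodes the inhibitor that holds NF-kB in the cytoplasm and is itself an NF-kB target. It stood at 2223, 2287 and 2254 CPM in WT, at 1728, 1786 and 1749 in APP/PS1 and at 1754, 1794 and 1759 in cKO. APP/PS1 and cKO overlapped, both below WT. The log2 change came to -0.36 ± 0.025 in APP/PS1 versus WT (edgeR adjusted p = 1.64e-12) and 0.01 ± 0.025 in cKO versus APP/PS1 (edgeR adjusted p = 0.714). In the latter comparison Nfkbia was called higher with length offsets (0.16), GC content and length offsets (0.13) and on log2(TPM + 1) (0.21). With the replicate number as a block it was called higher too (0.01, edgeR adjusted p = 0.0171). Socs3, an inhibitor of Jak-Stat signalling, stood at 1706, 1864 and 1819 CPM in WT, at 1134, 1201 and 1191 in APP/PS1 and at 1161, 1270 and 1237 in cKO. The same arrangement held, with WT above and the other groups overlapping. edgeR put its log2 change at -0.61 ± 0.036 in APP/PS1 versus WT (edgeR adjusted p = 1.98e-11) and 0.06 ± 0.036 in cKO versus APP/PS1 (edgeR adjusted p = 0.192), a change that was called at 0.09 (adjusted p = 0.0249) without cKO library 1, at 0.09 with library totals and 0.25 on log2(TPM + 1), and, in the other direction, at -0.08 with GC content and length offsets. The fit with the replicate number as a block called the latter change higher (edgeR adjusted p = 2.86e-07). Nfkbiz, a nuclear inhibitor of kappa B protein that also activates secondary response genes, stood at 2474, 2449 and 2482 CPM in WT, at 2705, 2651 and 2777 in APP/PS1 and at 2741, 2680 and 2751 in cKO. WT lay below the overlapping other groups. On the log2 scale the difference was 0.14 ± 0.025 in APP/PS1 versus WT (edgeR adjusted p = 4.38e-05), and it turned to -0.26 on log2(TPM + 1) and to -0.00 on library totals and FPKM.

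Gadd45a and Gadd45b encode stress proteins that arrest growth and act on the p38 pathway, and Rhob encodes a short-lived GTPase of endosomes. Gadd45a stood at 21.7, 21.7 and 21.6 CPM in WT, at 11.1, 12.6 and 12.4 in APP/PS1 and at 35.1, 36.1 and 36.3 in cKO. The groups were far apart against their spread. Its change was, in log2 units, -0.85 ± 0.067 in APP/PS1 versus WT (edgeR adjusted p = 2.08e-11), 1.57 ± 0.062 in cKO versus APP/PS1 (2.97-fold, edgeR adjusted p = 1e-17) and 0.72 ± 0.054 in cKO versus WT (edgeR adjusted p = 1.62e-11). All 3 calls held in each of the 24 other ways of processing. Gadd45b stood at 588, 607 and 587 CPM in WT, at 639, 651 and 636 in APP/PS1 and at 578, 595 and 568 in cKO. APP/PS1 lay above the overlapping other groups. Its log2 change of 0.11 ± 0.028 in APP/PS1 versus WT (edgeR adjusted p = 0.00111) turned to -0.09 with the length offsets, -0.03 on library totals and FPKM and -0.28 on log2(TPM + 1), and was 0.02 with no call with GC content and length offsets, and its change of -0.15 ± 0.028 in cKO versus APP/PS1 (edgeR adjusted p = 6.95e-05) turned to 0.05 on log2(TPM + 1) and was lost with the length offsets (0.0007). Between cKO and WT it was -0.03 ± 0.028 (edgeR adjusted p = 0.331), and the replicate block called it lower (edgeR adjusted p = 0.0268). So did library totals (-0.14), length offsets (-0.09), GC content and length offsets (-0.06), log2 FPKM (-0.14) and log2(TPM + 1) (-0.23). Rhob stood at 2150, 2224 and 2185 CPM in WT, at 1869, 1901 and 1872 in APP/PS1 and at 1929, 1960 and 1925 in cKO. No groups overlapped. Its log2 change was -0.22 ± 0.025 in APP/PS1 versus WT (edgeR adjusted p = 2.47e-08; -0.07 and still called with GC content and length offsets) and 0.04 ± 0.025 in cKO versus APP/PS1 (edgeR adjusted p = 0.143), which was called at 0.07 with library totals or log2 FPKM, at 0.24 on log2(TPM + 1) and at -0.07 with GC content and length offsets.

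Hspa1a and Hspa1b encode inducible Hsp70 and Dnajb1 its co-chaperone, all targets of heat shock factor. Hspa1a stood at 293, 302 and 288 CPM in WT, at 208, 212 and 197 in APP/PS1 and at 213, 234 and 198 in cKO. WT lay above the overlapping other groups. The log2 change came to -0.52 ± 0.048 in APP/PS1 versus WT (edgeR adjusted p = 2.51e-07) and 0.06 ± 0.049 in cKO versus APP/PS1 (edgeR adjusted p = 0.303), a change called at 0.12 (adjusted p = 0.022) without cKO library 3 and at 0.25 on log2(TPM + 1). Hspa1b had a log2 change of -0.44 ± 0.050 in APP/PS1 versus WT (edgeR adjusted p = 1.29e-07), with the uncertainty of shared reads given above, and -0.20 with no call with GC content and length offsets. Dnajb1 stood at 102, 99.5 and 98.4 CPM in WT, at 122, 114 and 119 in APP/PS1 and at 136, 125 and 126 in cKO. It was lowest in WT, the opposite of Hspa1a, and no groups overlapped. edgeR put its log2 change at 0.37 ± 0.038 in cKO versus WT (edgeR adjusted p = 7.23e-09), a call that held in each of the 24 other ways of processing. In APP/PS1 versus WT it was 0.25 ± 0.039 (edgeR adjusted p = 4.35e-06), which turned to -0.14 on log2(TPM + 1). Its change of 0.12 ± 0.038 in cKO versus APP/PS1 (edgeR adjusted p = 0.00777) was lost without cKO library 1 or APP/PS1 library 2, with adjusted p of 0.0673 and 0.067, with length offsets (0.07) and with GC content and length offsets (0.02).

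Ratios between related genes within a library do not move with how libraries are scaled, and 8 pairs were chosen after the values above were seen, so they are given with no test. Gadd45a stood at 3.78 ± 0.067 TPM per 100 TPM of Gadd45b in WT (SD, n = 3), at 1.94 ± 0.13 in APP/PS1 and at 6.39 ± 0.19 in cKO. The ratio was thus 3.29-fold higher in cKO than in APP/PS1. Dusp5 per 100 TPM of Dusp1 was 3.13 ± 0.057 in WT, 4.25 ± 0.25 in APP/PS1 and 5.56 ± 0.33 in cKO. Nr4a3 per 100 TPM of Nr4a1 rose through the same order of groups, from 2.98 ± 0.15 in WT to 4.01 ± 0.33 and 4.80 ± 0.26. Klf4 per 100 TPM of Klf2 was 49.97 ± 2.4 in WT, 63.0 ± 3.1 in APP/PS1 and 74.9 ± 3.8 in cKO. Fosb per 100 TPM of Fos overlapped between WT and APP/PS1 and was higher in all cKO libraries, at 51.7, 54.8 and 54.2. Egr3 per 100 TPM of Egr1 was 1.76 ± 0.088 in WT, 1.65 ± 0.045 in APP/PS1 and 2.14 ± 0.085 in cKO. Zfp36l1 per 100 TPM of Zfp36 was 10.2 ± 0.55 in WT, 14.0 ± 0.90 in APP/PS1 and 9.06 ± 0.69 in cKO. Dnajb1 per 100 TPM of Hspa1a was 31.5 ± 0.89 in WT and overlapped between APP/PS1, at 53.6 ± 3.2, and cKO, at 56.1 ± 5.5. A ratio shows unequal change of its genes, not which of them moved.

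**Figure D3:**
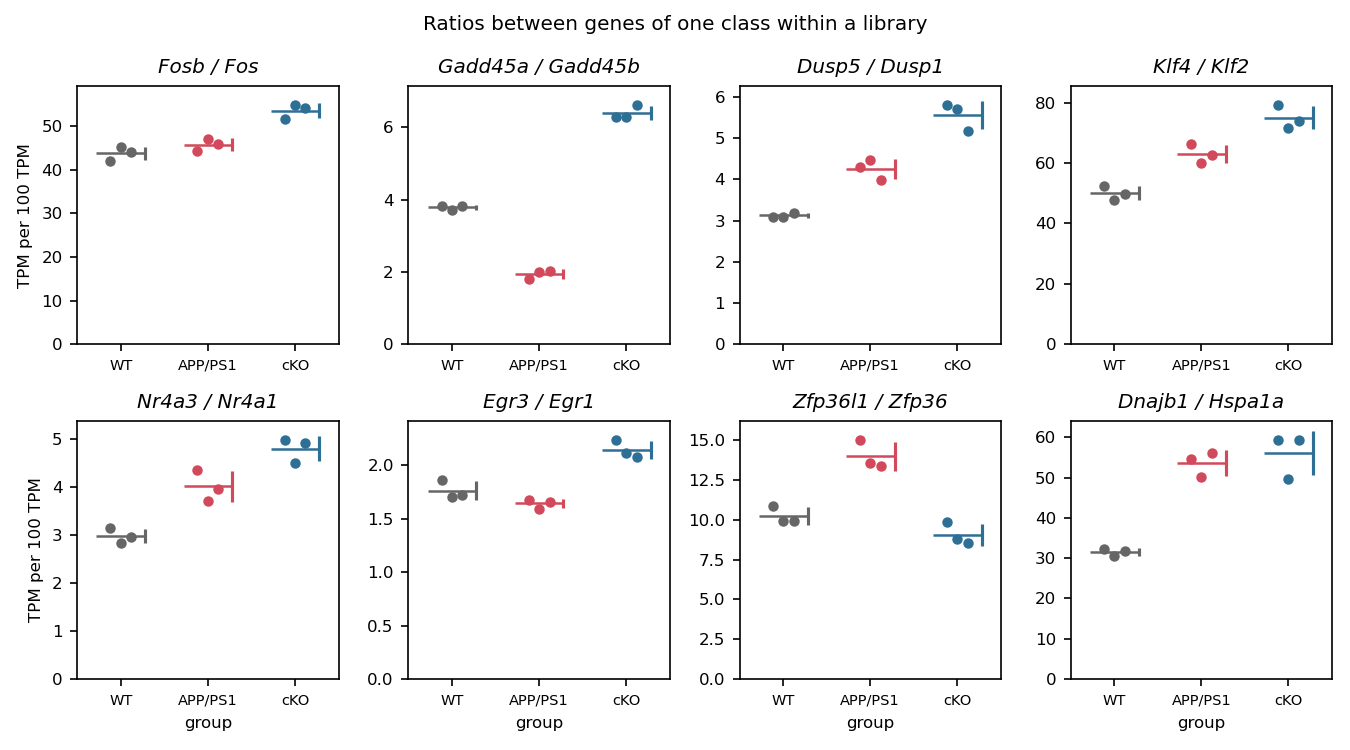
TPM of a gene per 100 TPM of a related gene in each library (points), with the mean (horizontal line) and SD (vertical line) of the 3 libraries of each group. Gadd45a relative to Gadd45b is lowest in APP/PS1 at 1.94 and highest in cKO at 6.39, and the Dusp5, Klf4 and Nr4a3 ratios are lowest in WT and highest in cKO.

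The medians of genes with and without a motif are given as a description. In APP/PS1 versus WT the median log2 change was -0.19 over the 18 members with the TGACG core and -0.36 over the 15 without it. In cKO versus WT these medians were -0.04 and -0.27. For the Egr motif the medians in APP/PS1 versus WT were -0.35 over 13 members with it and -0.22 over 20 without, and for the NF-kB motif -0.34 over 10 and -0.22 over 23. In cKO versus WT they were -0.16 with and -0.20 without the Egr motif, the other way round, and -0.23 and -0.17 for the NF-kB motif. In cKO versus APP/PS1 they were 0.12 and 0.06 for the TGACG core, 0.10 and 0.10 for the Egr motif and 0.08 and 0.11 for the NF-kB motif.

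Other genes of the same pathways were counted from lists, with TMM scaling only, and are to be read beside the shares of all tested genes: 26.9% higher and 32% lower in APP/PS1 versus WT, 27.3% and 27.7% in cKO versus APP/PS1, and 24.7% and 23% in cKO versus WT. Of 21 upstream kinases and factors, 10 were lower and 4 higher in APP/PS1 versus WT, and 14 were higher in cKO versus APP/PS1, where the other 7 did not pass. Srf, the serum response factor, had a log2 change of -0.55 ± 0.052 in APP/PS1 versus WT (edgeR adjusted p = 1.5e-08), and Mapk3, which encodes ERK1, had 0.35 ± 0.033 in cKO versus APP/PS1 (edgeR adjusted p = 9.04e-10). Crem, a CREB family factor, went up in APP/PS1 versus WT by 0.53 ± 0.063 (edgeR adjusted p = 5.93e-08). Of 27 other immediate early and delayed genes, 14 were lower and 10 higher in APP/PS1 versus WT, and 9 were higher and 10 lower in cKO versus APP/PS1, where the shares higher and lower lie near those of all tested genes. The largest called changes in APP/PS1 versus WT went both ways. Cd69, an early activation marker of lymphocytes and myeloid cells, rose by 1.38 ± 0.053 (edgeR adjusted p = 5.07e-18), and Il1b, the cytokine interleukin-1 beta, rose by 1.11 ± 0.026 (edgeR adjusted p = 1.02e-22), from a mean of 933 CPM to 2007 CPM. Fosl1, the remaining Fos family gene, at 12 to 15 counts in the APP/PS1 libraries, had the order of Gadd45a, with log2 changes of -1.71 ± 0.22 in APP/PS1 versus WT (edgeR adjusted p = 1.79e-07) and 2.55 ± 0.20 in cKO versus APP/PS1 (edgeR adjusted p = 2.61e-11). Of 16 other feedback inhibitors, 10 were lower and 3 higher in APP/PS1 versus WT, and 7 were higher and 2 lower in cKO versus APP/PS1. Dusp4 and Spry1 were among them, with log2 changes of -0.83 ± 0.091 and -0.49 ± 0.056 in APP/PS1 versus WT (edgeR adjusted p = 1.48e-08 and 3.09e-08).

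Of 15 other heat shock genes, 8 were higher, 3 lower and 4 not called in APP/PS1 versus WT (26.9% higher and 32% lower over all tested genes). In cKO versus APP/PS1, 3 were higher and 8 lower (27.3% and 27.7% over all tested genes). Hspe1, which encodes the mitochondrial co-chaperonin Hsp10, had log2 changes of 1.42 ± 0.045 and -1.02 ± 0.044 in these comparisons (edgeR adjusted p = 7.68e-20 and 6.55e-17). Of 10 genes of the integrated stress response, in which Atf4 drives amino acid synthesis, 2 were higher and 5 lower in APP/PS1 versus WT, and 6 were higher and 2 lower in cKO versus WT (24.7% and 23% over all tested genes). Psat1, a phosphoserine aminotransferase of serine synthesis, had the largest change in APP/PS1 versus WT, 1.63 ± 0.037 (edgeR adjusted p = 5.58e-23), from a mean of 61.1 CPM to 189 CPM. Asns, asparagine synthetase, at 44 to 53 counts in the APP/PS1 libraries, had the order of Gadd45a, with log2 changes of -1.28 ± 0.12 in APP/PS1 versus WT (edgeR adjusted p = 1.11e-09) and 2.05 ± 0.11 in cKO versus APP/PS1 (edgeR adjusted p = 1.78e-14).

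In each group 24 of the 37 genes (64.9%) were lower in library 1 than in the mean of libraries 2 and 3. The share was 49.9% in WT, 52.5% in APP/PS1 and 50.1% in cKO over 6526 genes with at least the mean CPM of the lowest of the 37. That set has no upper limit, so it is not matched in level. Ier2, with a transcript GC content of 60.9%, had log2 differences of -0.14, -0.19 and -0.19 from the mean of libraries 2 and 3 in WT, APP/PS1 and cKO. Junb, at 62.6% GC, had differences of -0.14, -0.14 and -0.12, and Egr1, at 57.3%, had -0.12, -0.12 and -0.14. Dusp2, at 59.2%, went the other way with 0.09, 0.03 and 0.05, and Zfp36l1, at 49.0%, had 0.07, 0.07 and 0.13. Over the 37 genes, Spearman's rho between transcript GC content and this difference was -0.44 in WT, -0.28 in APP/PS1 and -0.44 in cKO. Over the 6526 genes it was -0.48, -0.47 and -0.51. These are correlations across genes that share the same 3 libraries, given as a description. The median transcript GC content of the 37 genes was 54.4%, against 49.8% over all tested genes.

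**Figure D4:**
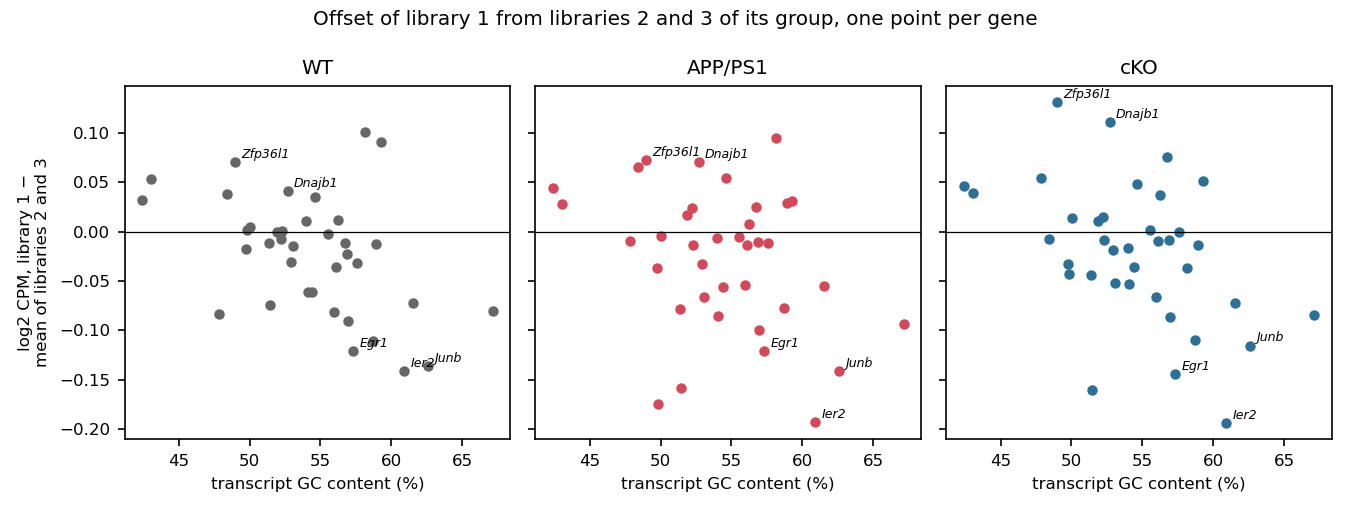
Difference in log2 CPM between library 1 and the mean of libraries 2 and 3 of its group, against the GC content of the gene's longest annotated transcript, with 1 point per gene. In all 3 groups Ier2, Junb and Egr1 lie below 0, while Zfp36l1, Dnajb1 and the GC-rich Dusp2 (not labelled) lie above it.

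**Figure D5:**
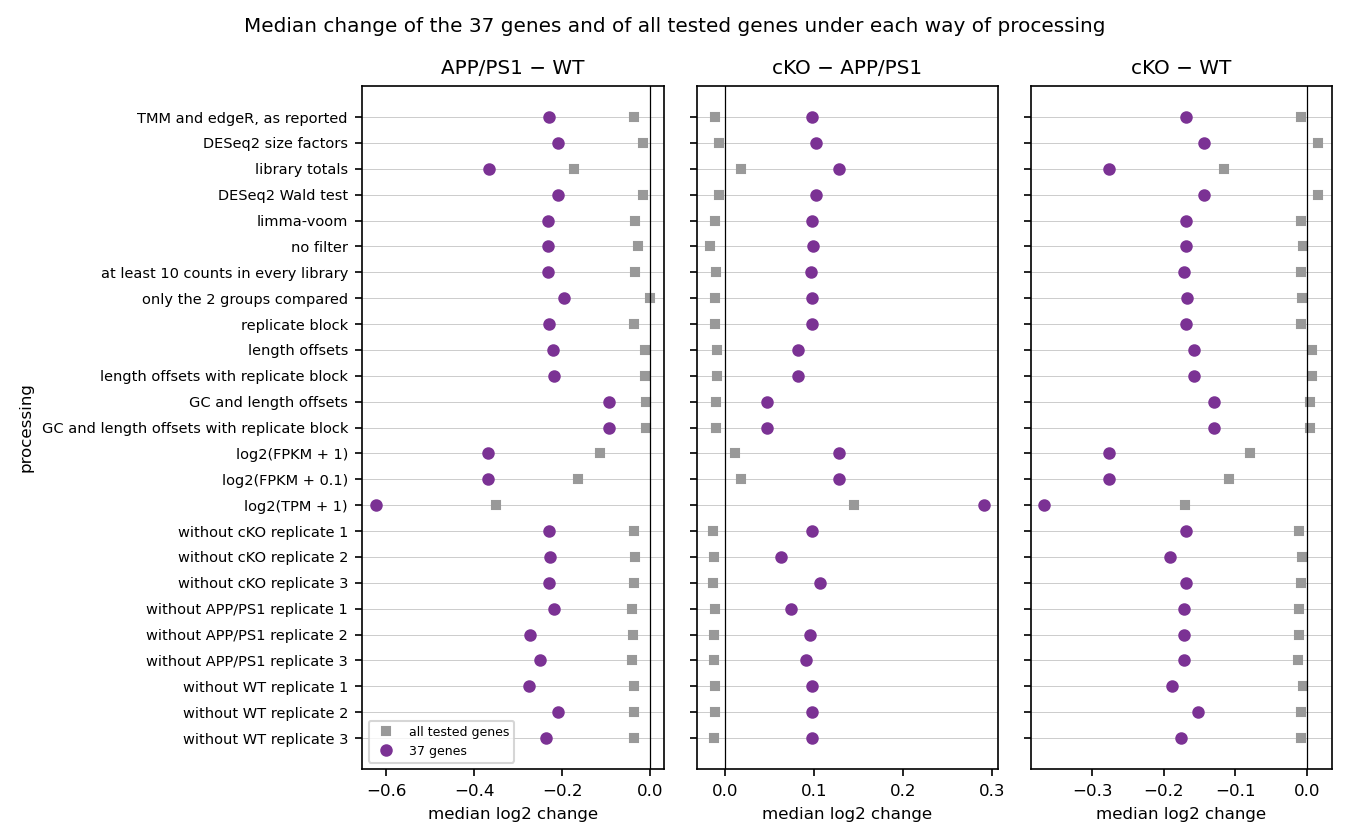
Median log2 change of the 37 genes (circles) and of all tested genes (squares) in each comparison under each way of processing the data. The circles stay below the squares in APP/PS1 versus WT and cKO versus WT and above them in cKO versus APP/PS1, and the GC content and length offsets bring them nearest, at -0.09 and -0.01 in the first comparison.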

How the data were processed

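Poly-A RNA of the 9 libraries was sequenced with single-end reads of 50 nt, per the labels' protocols. The submitters' processing notes name HISAT, Bowtie2, DESeq2 and the build GRCm38.p6, without roles or versions. The authors deposited, per the file headers, an estimated count, an FPKM and a TPM per gene and library. The normalised counts deposited beside them, a signal scaled by 1 factor per library, were not used. Estimated counts, which carry decimals, were rounded here, although the design had assumed whole counts. Genes were tested with edgeR 4.0.16 (R 4.3.3): quasi-likelihood, TMM scaling, filterByExpr, robust dispersion, all 9 libraries in 1 fit, Benjamini-Hochberg adjusted p under 0.05 over 14696 genes. CPM use TMM-scaled library sizes, and their precision is the spread of 3 libraries. The step was tested on simulated data.

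Alternatives were DESeq2 1.42.0, limma 3.58.1 (voom, and trend on log2 of FPKM or TPM plus 1, or FPKM plus 0.1), other filters and scalings, offsets in 10 bins of GC content or length from GENCODE release 21, a replicate block, and each library left out. The GC content offsets were added after seeing the data. The members and lists were chosen with earlier results of these data known. Values in every library are printed for the gene with the highest TPM in each role and for the 4 largest called rises and falls per comparison, and Fos. Context lists allowed up to 3 genes per comparison, those with the largest called change.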

Additional observations from a re-analysis of the deposited data

How the results depend on the processing

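The counts of called members stayed within 1.5 times of those reported when any 1 library was left out, with 24 to 27 lower in APP/PS1 versus WT and 16 to 18 higher in cKO versus APP/PS1. At a 2-fold minimum the counts were 0 higher and 0 lower in APP/PS1 versus WT, 1 and 0 in cKO versus APP/PS1 and 0 and 0 in cKO versus WT, all by edgeR, where the counts without that minimum are those of the report. Members higher in APP/PS1 versus WT numbered 2 with library totals, 1 on log2 FPKM with either pseudocount and 0 on log2(TPM + 1). In cKO versus APP/PS1, members lower numbered 3 with length offsets, 11 with GC content and length offsets, 15 with these and the replicate block and 1 on log2(TPM + 1), where 32 were higher. On that scale 4 were higher in cKO versus WT. The share of all tested genes called in either direction on log2(TPM + 1) was 77.2% in APP/PS1 versus WT, 61.8% in cKO versus APP/PS1 and 61.6% in cKO versus WT. At the 2-fold minimum it was 8.55%, 7.65% and 5.19%. In APP/PS1 versus WT it was 66.4% with library totals. In cKO versus APP/PS1 it was 52% with length offsets, 51.7% with GC content and length offsets and 55.4% with these and the block.

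Among the 24 members named by the rule, directions turned as follows where either value was called, as log2 changes, and the cause was not tested beyond the named choice. In APP/PS1 versus WT, Egr1 was 0.049 with GC content and length offsets, with and without the block. Gadd45b was -0.087 with length offsets, with and without the block. With library totals Zfp36l1 was -0.14, Nfkbiz -0.0022 and Gadd45b -0.025. On log2 FPKM with either pseudocount, Zfp36l1 was -0.14, Nfkbiz -0.0018 and Gadd45b -0.025. On log2(TPM + 1), Nr4a3 was -0.14, Zfp36l1 -0.39, Btg1 -0.25, Nfkbiz -0.26, Gadd45b -0.28 and Dnajb1 -0.14. In cKO versus APP/PS1 with GC content and length offsets, with and without the block, Nr4a1 was -0.083, Ier3 0.28, Nfkbiz -0.090 (-0.091 with the block), Socs3 -0.082 and Rhob -0.072, and Hspa1a was -0.0765 with the block. With length offsets Ier3 was 0.34, Dusp2 0.011 and Gadd45b 0.00070 (0.00069 with the block), and Nfkbiz was -0.057 with the block. On log2(TPM + 1), Egr1 was 0.14, Ier3 0.035, Dusp2 0.059 and Gadd45b 0.048. In cKO versus WT, Klf4 was -0.021 with library totals, -0.020 on log2(FPKM + 1) and -0.021 on log2(FPKM + 0.1), Fosb was -0.090 with library totals, and on log2(TPM + 1) Fosb was -0.18, Klf4 -0.11 and Nfkbiz -0.053. In 17 further turns of 5 of these members neither value was called, and the turned values were at most 0.087 in size, among them Dusp5 at 0.058 in APP/PS1 versus WT and Hspa1a at -0.077 in cKO versus APP/PS1, both with GC content and length offsets. Of the 13 other members, Fos among them, Atf3 was called at 0.092 on log2(TPM + 1) and Jund at -0.033 with GC content and length offsets and the block in cKO versus APP/PS1, each against the reported call. Others that did not pass were called the other way: on log2(TPM + 1) Egr2 (-0.28) in APP/PS1 versus WT, Jun (0.19) in cKO versus APP/PS1, and Maff (-0.11), Egr2 (-0.15) and Egr3 (-0.15) in cKO versus WT, and with GC content and length offsets Btg2 (-0.063, and -0.039 with length offsets and the block) and, with the block too, Ier5 (-0.050) in cKO versus APP/PS1.

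Libraries with the same replicate number share only a number by the labels. Deviations from the group means correlated at 0.05 to 0.15 over the 9 pairs with the same number, and at 0.08 to 0.26 over the 10810 genes whose mean count was 100 or more, so not every pair passed 0.1, although over all tested genes the 3 pairs of cKO and WT did, at 0.13 to 0.15, and over the 10810 genes the 3 pairs of APP/PS1 and WT did, at 0.14 to 0.26. The mean over pairs of other numbers was -0.056. Of all tested genes, the fit with the replicate block called 63.4% in APP/PS1 versus WT, 60.2% in cKO versus APP/PS1 and 54% in cKO versus WT, in either direction. The reported fit called 59%, 55% and 47.7%. The fit with the replicate block called 6 members higher and 28 lower in APP/PS1 versus WT, 26 and 6 in cKO versus APP/PS1 and 7 and 25 in cKO versus WT. With it Maff (lower) and Egr2 (higher) were added in APP/PS1 versus WT; Junb, Nr4a1, Ier2, Ier5, Nfkbia, Socs3, Rhob and Hspa1a (higher) and Egr2 (lower) in cKO versus APP/PS1; and Junb, Ier2 and Gadd45b (lower) in cKO versus WT. Counting error weighs most on low members such as Gadd45a, and 3 libraries per group limit every comparison.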

Other observations

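Markers of other cell types moved between the groups as well, and their part in the results for the immediate early genes was not tested. Summed over 6 erythroid markers, the level was 1185 to 1240 CPM in WT, 248 to 275 in APP/PS1 and 95.2 to 105 in cKO. All 6 fell in APP/PS1 versus WT (edgeR). Over 10 astrocyte markers it was 539 to 545 CPM in WT, 740 to 760 in APP/PS1 and 571 to 585 in cKO, and 9 of the 10 rose in APP/PS1 versus WT. Over 6 border macrophage markers it was 527 to 539, 378 to 393 and 340 to 354 CPM, over 8 vessel markers 676 to 694, 615 to 637 and 536 to 545 CPM, and over 9 lymphocyte markers 61.7 to 63.1, 57.4 to 59.2 and 56.2 to 59.0 CPM. Over 8 oligodendrocyte markers it was 2261 to 2322, 2334 to 2375 and 2203 to 2268 CPM, and over 8 neuron markers 66.8 to 76.1, 71.3 to 80.6 and 52.6 to 56.6 CPM. None of these lists had a gene at 0 in all libraries. Cx3cr1, the gene that drives Cre, stood at 2247, 2288 and 2245 CPM in WT, at 2223, 2247 and 2223 in APP/PS1 and at 1186, 1231 and 1226 in cKO.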
